A study of Mus musculus with 22 samples.

Results

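The genes described here are 42 genes of mitosis, given as a fixed list of symbols and matched by symbol to the 18487 genes of the deposited expression table. All 42 were found, and all 42 were among the 17275 genes with values high enough to test. The match used symbols and no measured value. RNA-seq was made from E14 cells, a line of mouse embryonic stem cells (ESCs), as 22 libraries in 11 groups of 2. One group was labelled NC and carried no compound name. The other 10 groups were each treated with 1 compound, labelled Bromosporine, Chaetocin, CPTH2, DZNep, Garcinol, IOX1, MS023, OICR, UNC0379 or Valproate. Dose, time and vehicle are not given in the sources used here, and nothing in the labels says that the 2 libraries of a group came from separate cultures, so p-values measure the spread between libraries, which may be technical. All groups were the same cell line, so a compound effect in other ESC lines was not measured.

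The compounds act on chromatin enzymes or readers, as general background. UNC0379 inhibits SETD8 (gene symbol Kmt5a here), the enzyme that adds 1 methyl group to lysine 20 of histone H4 and whose protein is abundant in mitosis. DZNep inhibits the enzyme that clears S-adenosylhomocysteine, a by-product that restrains many methyltransferases. Valproate inhibits histone deacetylases, Bromosporine inhibits bromodomains and MS023 inhibits type I arginine methyltransferases.

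Mitosis begins when cyclin B bound to Cdk1 is activated by Cdc25 phosphatases. Kinetochores then attach chromosomes to the spindle, and the spindle checkpoint (Bub1, Bub1b, Bub3, Mad2l1, Ttk) holds Cdc20 inactive until attachment is complete. The anaphase-promoting complex, with Cdc20 and Ube2c, then marks cyclin B and securin (Pttg1) for destruction, separase (Espl1) opens cohesin, and the cytokinesis proteins divide the cell. Much of this transcription is confined to G2 and M phase, and ESCs, which have short gap phases, carry high levels of these RNAs.

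Transcription of G2/M genes is known to depend on a short element with the letters TTTGAA or TTTAAA (the cell cycle genes homology region, bound by the MuvB complex with B-Myb or FoxM1) and on CCAAT boxes bound by NF-Y. To show how far the mitosis genes share this feature, the 300 bases around each RefSeq start (250 before, 50 after) were searched on both strands in the mouse assembly GRCm38.p6. A RefSeq promoter was found for 36 of the 42 genes. A gene counted if any of its promoters matched. TTTGAA was present in 25 of the 36 (69.4%), in 20.2% of all 27025 genes with a RefSeq promoter and in 15.9% of the 12329 of them in the expression table. It was present in 40.5% of 111 further mitosis genes from a separate list and in 16.3% of 49 DNA replication genes. CCAAT was present in 27 of 36 (75.0%), against 41.1% of all genes, 43.4% of those in the table, 57.7% of other mitosis genes and 57.1% of DNA replication genes. Both TTTGAA and CCAAT were present in 22 of 36 (61.1%), against 8.0%, 6.6%, 27.9% and 8.2% in the same order. TTTAAA was present in 9 of 36 (25.0%), against 14.9% of all genes and 12.1% of those in the table. The 120 bases directly before the start are shown for 8 of the genes that are described most below, 5′ to 3′, with each TTTGAA, each TTTAAA and each CCAAT, or their reverse complements, in capitals:
Ccnb1, chr13:100786487-100786606, minus strand: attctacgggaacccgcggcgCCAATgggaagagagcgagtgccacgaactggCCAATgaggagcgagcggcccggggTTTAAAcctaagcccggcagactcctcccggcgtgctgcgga
Cdk1, chr10:69352913-69353032, minus strand: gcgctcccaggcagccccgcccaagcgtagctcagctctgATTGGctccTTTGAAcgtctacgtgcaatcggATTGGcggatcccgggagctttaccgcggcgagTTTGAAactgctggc
Ccnb2, chr9:70421555-70421674, minus strand: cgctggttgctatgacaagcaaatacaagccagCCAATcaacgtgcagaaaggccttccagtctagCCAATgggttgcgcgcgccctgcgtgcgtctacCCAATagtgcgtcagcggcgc
Bub1, chr2:127831860-127831979, minus strand: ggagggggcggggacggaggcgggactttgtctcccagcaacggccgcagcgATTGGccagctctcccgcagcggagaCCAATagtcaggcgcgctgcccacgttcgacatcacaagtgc
Ube2c, chr2:164769809-164769928, plus strand: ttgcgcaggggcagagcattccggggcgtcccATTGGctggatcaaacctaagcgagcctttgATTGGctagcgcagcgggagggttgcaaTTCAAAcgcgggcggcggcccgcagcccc
Cdc20, chr4:118437344-118437463, minus strand: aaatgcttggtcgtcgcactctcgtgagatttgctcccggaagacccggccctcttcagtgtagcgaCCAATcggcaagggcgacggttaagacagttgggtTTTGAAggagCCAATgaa
Top2a, chr11:99024190-99024309, minus strand: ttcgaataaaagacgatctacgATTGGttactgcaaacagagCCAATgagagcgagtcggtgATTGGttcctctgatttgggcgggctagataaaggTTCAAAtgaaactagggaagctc
Cdc25b, chr2:131186828-131186947, plus strand: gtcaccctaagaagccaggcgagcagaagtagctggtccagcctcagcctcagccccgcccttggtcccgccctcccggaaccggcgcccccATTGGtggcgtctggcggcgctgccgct

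TTTGAA or its reverse complement stood 15 bases before the start of Cdk1, 18 before that of Cdc20, 23 before that of Top2a and 29 before that of Ube2c, and TTTAAA stood 42 bases before that of Ccnb1. In Ccnb2, 3 CCAAT boxes stood 87, 54 and 21 bases before the start, and a TTTGAA lay 4 bases after it, outside the stretch shown. Bub1 and Cdc25b held CCAAT but neither of the other 2 elements in the window. A match is a description of the letters, and no binding was measured.

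The values are read counts that the authors normalized to a common distribution and rounded, so each library had the same median of 409 and a total between 38403767 and 38419709. The depth of each library as sequenced is therefore unknown, and no counting interval can be given. As a check of the cell type, 11 of 11 ESC markers were present in every library, the lowest of their values being 823, and their summed value ran from 211192 to 308801. Fibroblast or feeder markers summed to between 27 and 1874 per library, trophoblast markers to between 230 and 1237, and primitive endoderm markers to between 219 and 739. Neural markers summed to between 2390 and 6458, the highest of these lists, and mesoderm markers to between 135 and 390.

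Over all 10 compounds, 10 of 420 pairs of a mitosis gene and a compound passed the test (limma on log2 of the value plus 1, Benjamini-Hochberg adjusted p below 0.05 within a compound), 9 of them lower and 1 higher than NC. Of all 172750 pairs of a tested gene and a compound, 4.23% passed. They involved 7 of the 42 genes, namely Ccnb2, Bub1, Prc1, Kif2c, Ube2c, Cdc25b and Aurkb, and 35 genes passed with no compound. A lower value in bulk RNA cannot tell fewer cells in mitosis from less RNA per cell. All 10 comparisons share the same 2 NC libraries.

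**Figure D1:**
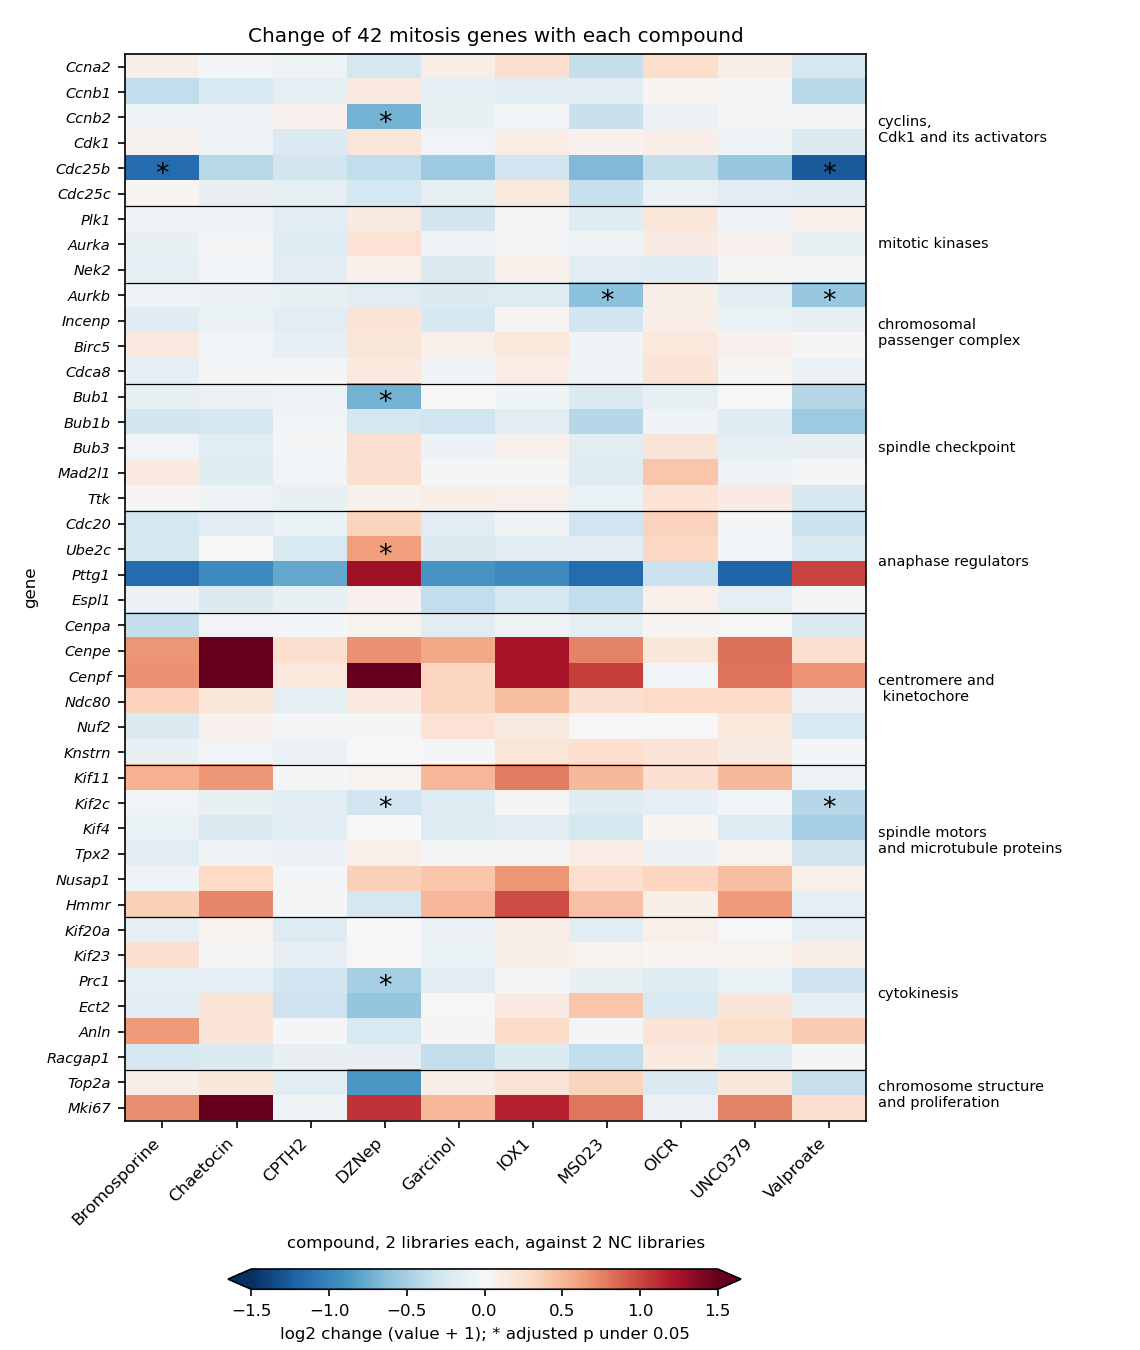
Log2 change (value plus 1) of each of the 42 mitosis genes (rows, grouped by role) with each of the 10 compounds (columns) against NC, n = 2 libraries per group, with red for higher and blue for lower and colours capped at 1.5 in either direction. The 10 asterisks mark adjusted p below 0.05: 5 are in the DZNep column, 3 in the Valproate column, and 1 each in the Bromosporine and MS023 columns.

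With DZNep, Ccnb2, Bub1, Prc1 and Kif2c fell and Ube2c rose, which is 5 of 42 (11.9%), beside 23.6% of all tested genes in the same comparison. The share of mitosis genes called was not above this background. When p-values were adjusted over all 10 contrasts together, 2 mitosis genes passed with DZNep and 3 with Valproate. The share of all tested genes was not computed under that adjustment. The median log2 change of the 42 genes was 0.06, beside -0.04 over all tested genes, and 24 of the 42 values were above 0. None of the 5 changed by more than 2-fold. The most negative value of the 42 was that of Top2a, at 32065 and 24731 in NC and 25671 and 9272 with DZNep. Its log2 difference of -0.87 did not pass (adjusted p = 0.111). Markers of other cell types also moved with DZNep. Of the fibroblast or feeder markers Col1a1 (24 in both NC libraries, 327 and 228 with DZNep) and Thy1 rose, of the primitive endoderm markers Pdgfra and Dab2 rose and Gata4 fell, of the other lists Krt8 and Eomes rose and Sox1 and Nes fell, and of the ESC markers Zfp42 and Utf1 rose. These were 2 of 6 tested fibroblast or feeder, 3 of 5 primitive endoderm, 1 of 3 trophoblast, 2 of 4 neural, 1 of 3 mesoderm and 2 of 11 ESC markers. The fibroblast or feeder sum was 1612 and 1874 with DZNep and 528 and 1368 in NC. The primitive endoderm sum was 467 and 739 against 454 and 364, and the trophoblast sum 1237 and 827 against 230 and 450. The neural sum was 4286 and 5119 against 3292 and 4950, above NC within each number although Sox1 and Nes fell. The mesoderm sum was 390 and 224 against 169 and 168. The part of such cells in the DZNep results was not tested.

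Ccnb2 (cyclin B2, chr9:70407692-70421547, minus strand, mm10) is a partner of Cdk1. Its value was 4290 and 4702 in NC and 2621 and 2886 with DZNep. Both DZNep libraries lay below all other 20 libraries, whose lowest value was 3364. The log2 change was -0.71 (SE 0.11, adjusted p = 0.000673). Ccnb1, the other B-type cyclin, was 13842 and 17645 in NC and 17267 in both DZNep libraries, a log2 difference of 0.14 (SE 0.20, adjusted p = 0.657). Only the change of Ccnb2 passed the test. The sign of the Ccnb1 value depended on the library number, at 0.319 in number 1 and -0.031 in number 2. A difference between the 2 cyclins was not tested. Of the Ccnb1 transcript, 46.9% of 31-base stretches are shared with the pseudogene Ccnb1-ps, so its counts are less certain.

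Bub1, a checkpoint kinase of the kinetochore (chr2:127801122-127831865, minus strand), was 9897 and 9421 in NC and 6090 and 5723 with DZNep. The next lowest library was Valproate number 2, at 6733. The log2 change was -0.71 (SE 0.13, adjusted p = 0.00153). The other 4 checkpoint genes did not pass: Bub1b differed by -0.26, Bub3 by 0.26, Mad2l1 by 0.24 and Ttk by 0.07 on the log2 scale.

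Prc1, which bundles the microtubules of the central spindle (chr7:80294450-80316259, plus strand), was 5341 and 5441 in NC and 4089 and 3561 with DZNep. The log2 change was -0.50 (SE 0.13, adjusted p = 0.0145). Kif2c, a kinesin that removes tubulin from microtubule ends at centromeres (chr4:117159639-117182639, minus strand), was 3524 and 3561 in NC and 2931 and 2830 with DZNep. Its log2 change was -0.30 (SE 0.10, adjusted p = 0.035). In both genes the DZNep and NC libraries did not overlap, and the change in Kif2c was the smallest of the 5. None of the 6 cytokinesis genes had a value above 0 with DZNep: beside Prc1, Ect2 differed by -0.58 (adjusted p = 0.185), Anln by -0.23 and Racgap1 by -0.13, and Kif20a and Kif23 were within 0.01 of 0.

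Ube2c, the ubiquitin-conjugating enzyme of the anaphase-promoting complex (chr2:164769898-164778822, plus strand), was 5692 and 7014 in NC and 9432 and 10033 with DZNep. These were the highest values of the 22 libraries, the next being 7978 with OICR. The log2 change was 0.62 (SE 0.18, adjusted p = 0.0234). Exons of Ube2c overlap those of Tnnc2 on the opposite strand and 25.1% of its 31-base stretches are shared with that gene, and no source used here says that the counting used strand.

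Not all genes that passed with DZNep when 1 library was left out were among those named above. Without DZNep number 1, Top2a differed by -1.60 and Ect2 by -1.17, and without DZNep number 2 by -0.13 and -0.001. For no fit that left out 1 library, here or below, was the share of all tested genes computed. Leaving out 1 library also moved the DZNep count. It was 2 without NC number 1, 3 without NC number 2, 2 without DZNep number 2 and 5 without DZNep number 1. Ccnb2 and Bub1 passed in all 4 of these fits, with adjusted p at most 0.00846 and 0.0192. Kif2c passed in none of them, Prc1 only without DZNep number 1 (0.0205), and Ube2c only without NC number 2 (0.0277).

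**Figure D2:**
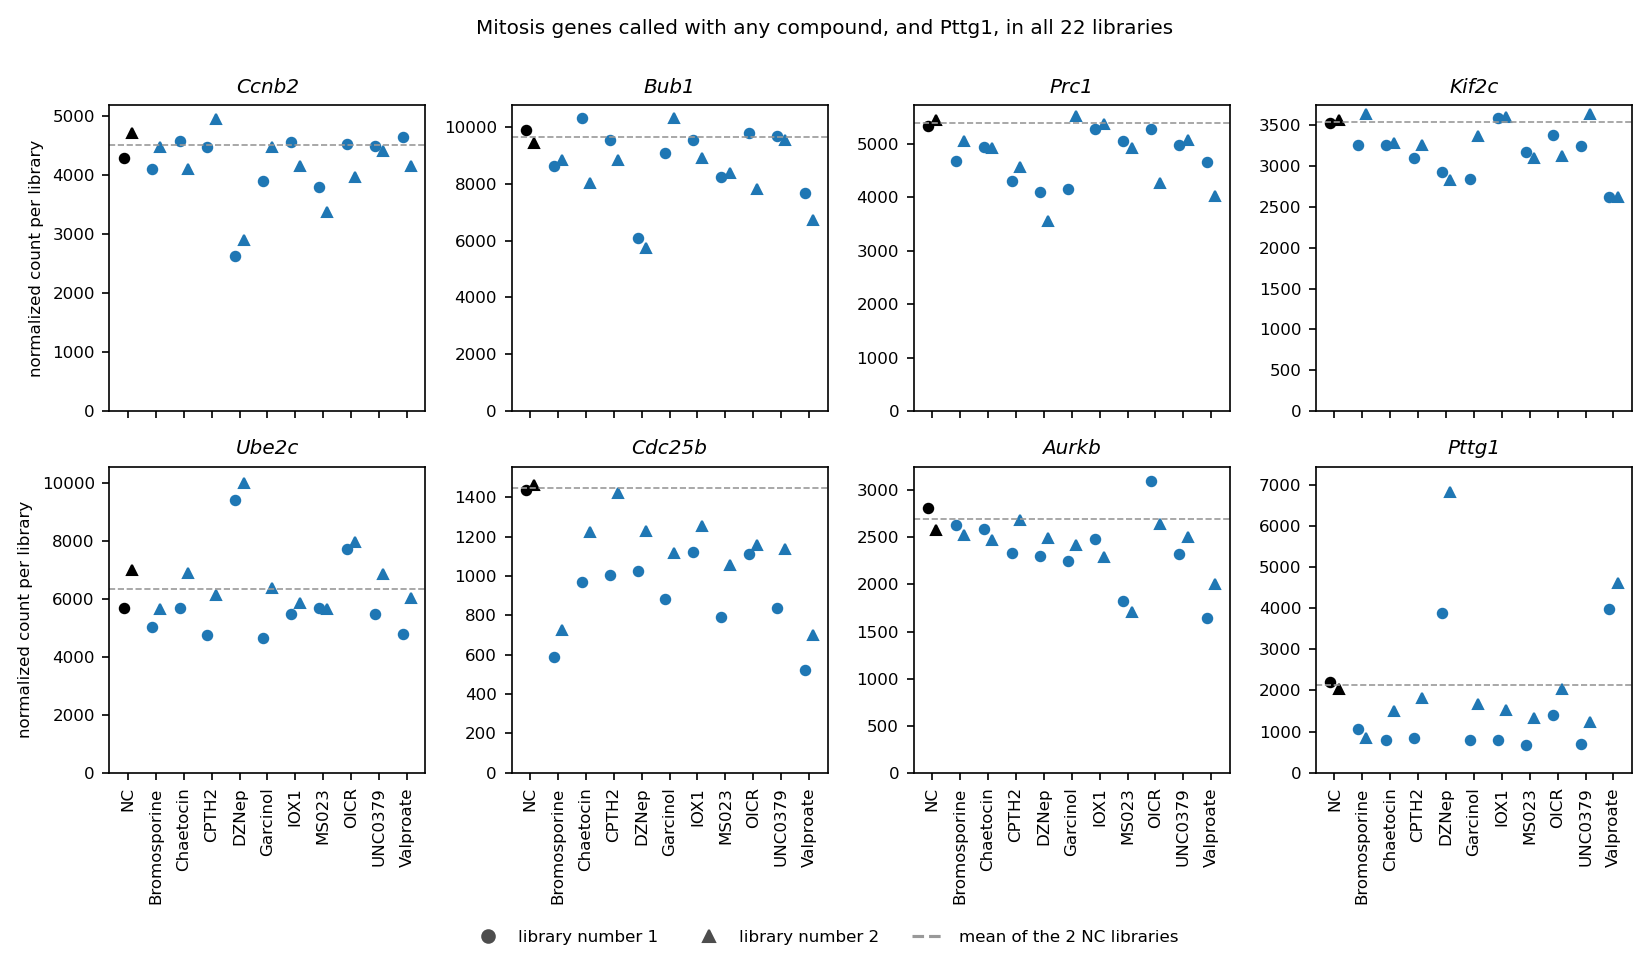
Normalized count (vertical axis, from 0) in each of the 22 libraries for the 7 mitosis genes that passed the test with any compound and for Pttg1, with circles for library number 1, triangles for number 2, black for NC and a dashed line at the NC mean. Both DZNep libraries are the lowest for Ccnb2 and Bub1 and the highest for Ube2c, and all 20 compound libraries lie below both NC libraries for Cdc25b.

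With UNC0379, no mitosis gene passed the test. The background was 0% of all tested genes, and 2 of the 42 genes (Cdc25b and Pttg1) had an unadjusted p below 0.05. Of all 17275 tested genes, 1051 had such a p. The median log2 change was 0.01, beside -0.0048 over all genes, with 22 values above 0 and 20 below. For 33 of the 42 genes the 95% interval of the change lay within a doubling or halving, as it did for 10257 of all 17275 tested genes. The other 9 mitosis genes (Cdc25b, Pttg1, Cenpe, Cenpf, Kif11, Nusap1, Hmmr, Anln and Mki67) had intervals that reached beyond it.

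The core genes of mitotic entry were close to NC with UNC0379. Ccnb1 was 13123 and 18006 (log2 difference -0.02, 95% interval -0.47 to 0.42), Cdk1 was 3809 and 4524 against 3957 and 4787 (-0.07, -0.48 to 0.35), and Plk1, the kinase that drives centrosome maturation, was 4307 and 5837 against 4559 and 5910 (-0.05, -0.56 to 0.46). Aurkb, the kinase of the chromosomal passenger complex, was 2322 and 2507 against 2812 and 2582 (-0.16, -0.41 to 0.09). The libraries of the 2 groups overlapped for Ccnb1, Cdk1 and Plk1 but not for Aurkb. Cdc20 differed by -0.02 and Mad2l1 by -0.06, also with overlapping libraries.

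The widest values with UNC0379 did not pass either. Pttg1 was 697 and 1222 against 2201 and 2041 in NC, a log2 difference of -1.20 (SE 0.50, adjusted p = 0.791). Cdc25b was 836 and 1136 against 1438 and 1461, a difference of -0.57 (SE 0.22, adjusted p = 0.791). In both genes the libraries did not overlap. Kif4, Bub1b and Racgap1 followed among the negative values, at -0.20, -0.18 and -0.18. The largest positive values were those of Cenpe (0.83), Cenpf (0.82), Mki67 (0.74), Hmmr (0.64) and Kif11 (0.49), and each of these 5 genes was higher than NC in library number 1. Cenpf and Mki67 were lower than NC in number 2: Mki67 was 1100 and 645 in NC and 3641 and 544 with UNC0379.

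Kmt5a, the gene of the enzyme that UNC0379 inhibits and not a member of the list, was 2143 and 2015 in NC and 2647 and 2367 with UNC0379, a log2 difference of 0.27 (SE 0.17, adjusted p = 0.892). The level of this RNA is no check of an inhibitor of the protein.

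When DZNep was compared directly with UNC0379, 4 of the 42 mitosis genes passed (9.52%), beside 19.5% of all tested genes. Pttg1 and Ube2c were higher with DZNep and Ccnb2 and Bub1 were lower. Pttg1, or securin (chr11:43420250-43426251, minus strand), was 3870 and 6813 with DZNep and 697 and 1222 with UNC0379, a log2 difference of 2.47 (SE 0.51, adjusted p = 0.00438), the only one of the 4 beyond 2-fold. For the other 3 the differences were -0.69 (Ccnb2, adjusted p = 0.00113), -0.70 (Bub1, 0.00223) and 0.67 (Ube2c, 0.0209). All 4 anaphase regulators had positive values, the other 2 being Cdc20 at 0.35 and Espl1 at 0.22. Top2a, the topoisomerase that untangles sister chromatids, was 25671 and 9272 with DZNep and 35330 and 28616 with UNC0379, a log2 difference of -1.04 (SE 0.37, adjusted p = 0.0665). The number of genes that passed was 8 without DZNep number 1 and 2 without UNC0379 number 1.

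**Figure D3:**
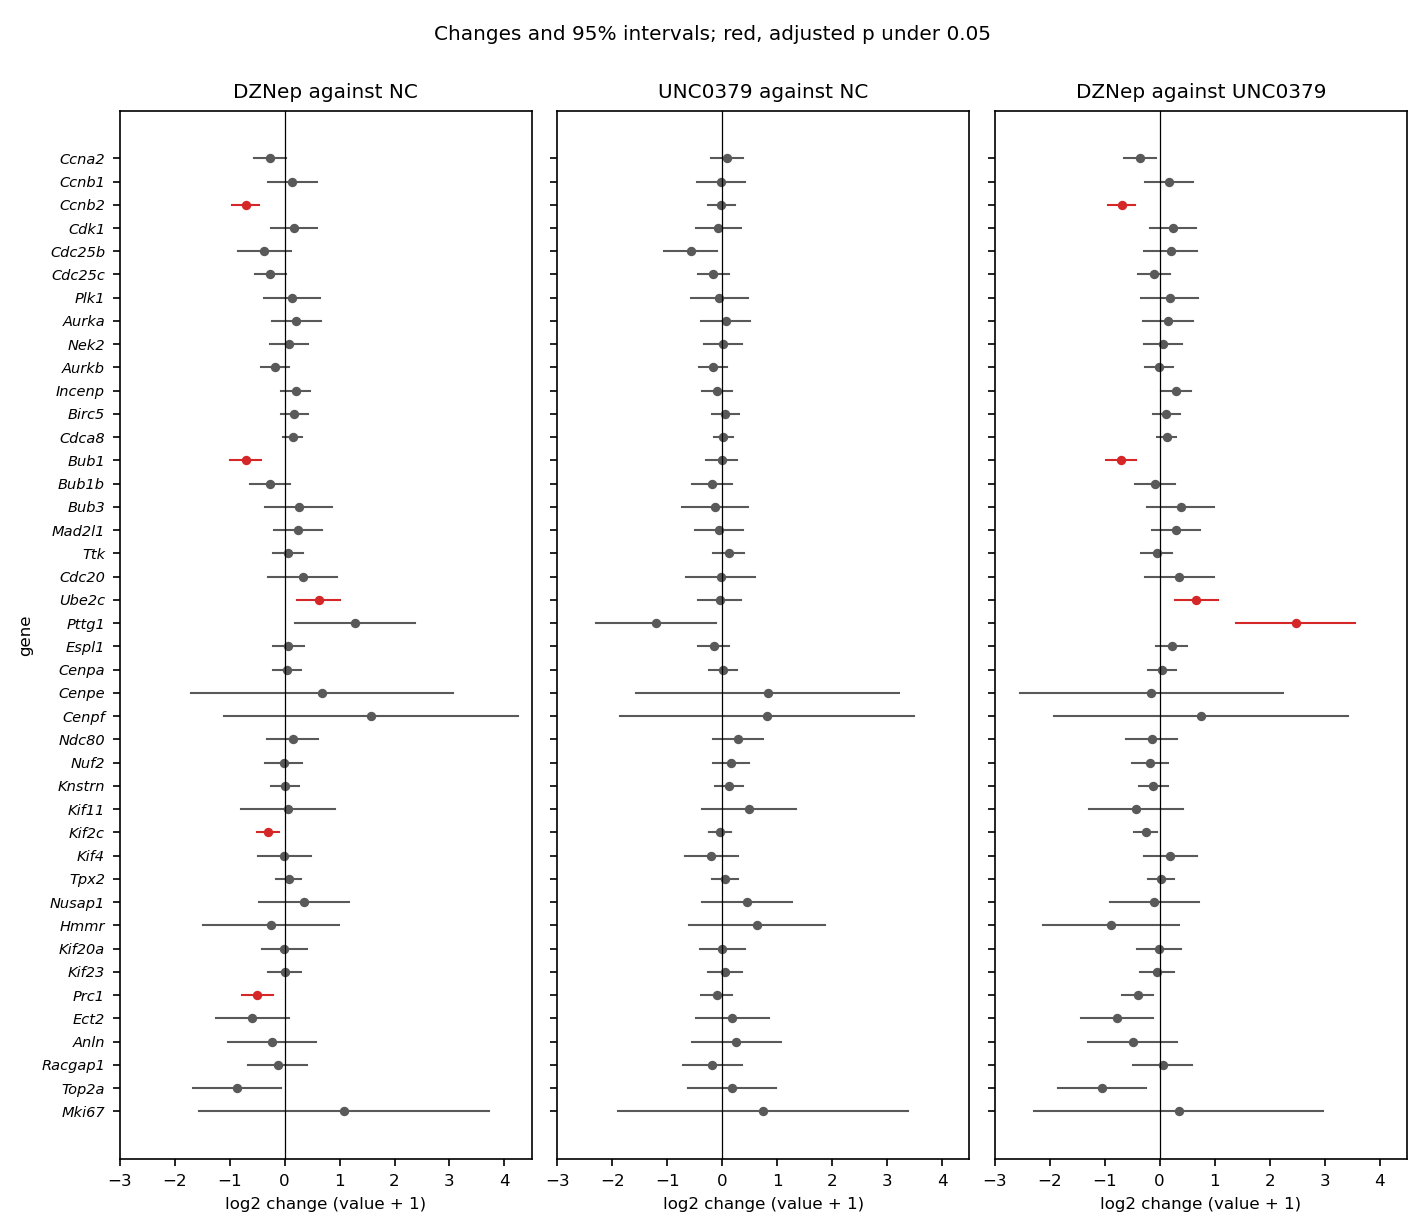
Log2 change (value plus 1, horizontal axis) with its 95% interval for the 42 mitosis genes with DZNep against NC (left), UNC0379 against NC (middle) and DZNep against UNC0379 (right), n = 2 libraries per group. Red marks adjusted p below 0.05: 5 genes on the left, 0 in the middle and 4 on the right, and the widest intervals are those of Cenpe, Cenpf and Mki67.

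Securin had the widest span of group means of the 42 genes, 2.47 on the log2 scale from UNC0379 to DZNep, followed by Cenpf at 2.30. Pttg1 was also the most negative of the 42 values with 7 of the 10 compounds. Pttg1 was above both NC libraries only with DZNep (3870 and 6813) and Valproate (3985 and 4599). It was at or below the NC libraries with each of the other 8 compounds, the lowest value being 684 with MS023. Against NC none of the 10 differences passed. The positive ones were 1.28 with DZNep (SE 0.50, adjusted p = 0.0853) and 1.01 with Valproate (0.244), and the most negative were the -1.20 with UNC0379 given above, -1.16 with Bromosporine (0.228) and -1.15 with MS023 (0.3). The residual SD of Pttg1 between the 2 libraries of a group was 0.55 on the log2 scale.

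Cdc25b, a phosphatase that activates cyclin and Cdk1 complexes at mitotic entry (chr2:131186949-131198497, plus strand), was lower than NC with every compound. NC gave 1438 and 1461, and each of the 20 compound libraries was below both, the highest being 1421 with CPTH2. This held for 1 of 42 mitosis genes (2.38%) and for 0.11% of all tested genes, and it rests on the same 2 NC libraries throughout. The fall passed the test with Bromosporine, at 588 and 725 (log2 change -1.15, SE 0.22, adjusted p = 0.00973), and with Valproate, at 523 and 701 (-1.26, SE 0.22, adjusted p = 0.00339). The intervals reached from -1.63 to -0.67 and from -1.74 to -0.78. Both were beyond 2-fold, and they were the only such changes against NC. With Bromosporine the call was lost without Bromosporine number 1 (adjusted p = 0.0974), without NC number 1 (0.0717) and without NC number 2 (0.0519). With Valproate it held in all 4 such fits, with adjusted p at most 0.0418. Exons of Cdc25b overlap those of Spef1 on the opposite strand, with 2.1% of 31-base stretches shared. Cdc25c, which acts on the same substrate, did not pass with any compound.

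Bromosporine changed 1 of 42 mitosis genes, Cdc25b, beside 5.4% of all tested genes. The median log2 change was -0.08 (0.01 over all genes), and 27 values were below 0. Cenpa, the histone H3 variant of centromeres, was 4290 and 4515 against 5532 and 5782 in NC, a log2 difference of -0.36 (SE 0.12, adjusted p = 0.0976). Ube2c was 5031 and 5658, below both NC values, and its difference did not pass. Among the cell type markers, Utf1 and Eomes rose and Col1a1 fell with Bromosporine.

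Valproate changed 3 of 42, all lower (7.14%, beside 10.3% of all tested genes). Beside Cdc25b these were Aurkb and Kif2c. Aurkb (chr11:69045647-69051664, plus strand) was 2812 and 2582 in NC, and the Valproate libraries gave 1639 and 2005. Its log2 change was -0.57 (SE 0.12, adjusted p = 0.00745). Kif2c was 3524 and 3561 in NC and 2623 in both Valproate libraries, a change of -0.43 (SE 0.10, adjusted p = 0.0104). Markers of other cell types moved here too. Thy1 and Lum (2 of 6 tested fibroblast or feeder markers) and Pdgfra (1 of 5 primitive endoderm markers) rose. Sox1 (1 of 4 neural markers) fell, and of the 11 ESC markers Utf1 rose. The fibroblast or feeder sum was 1554 and 1422 against 528 and 1368 in NC. The part of such cells in the Valproate results was not tested. The median over the 42 mitosis genes was -0.12, beside -0.02 over all genes, and 33 values were below 0. Bub1, at 7675 and 6733, and Bub1b, at 6918 and 8553 against 10809 and 11687, were below both NC libraries without passing (adjusted p = 0.0519 and 0.059). The count was 1 without NC number 1 and 1 without Valproate number 1. Aurkb was lost in both fits (adjusted p = 0.0713 and 0.0831), and Kif2c in both (0.0599 and 0.0568) and also without NC number 2 (0.0603).

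MS023 changed 1 of 42, Aurkb, beside 2.21% of all tested genes. Aurkb was 1825 and 1704 with MS023, a log2 change of -0.61 (SE 0.12, adjusted p = 0.0166), and the libraries of the 2 groups did not overlap. The other members of the chromosomal passenger complex, Incenp, Birc5 and Cdca8, had negative values that did not pass. The call on Aurkb was lost when any 1 of the 4 libraries was left out, namely MS023 number 1 (adjusted p = 0.0837), MS023 number 2 (0.117), NC number 1 (0.163) or NC number 2 (0.0549). The median was -0.15 over the 42 genes, the lowest of the 10 compounds, and -0.01 over all genes. Among the cell type markers, only Sox1 passed with MS023, and it fell.

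No mitosis gene passed with the other 5 compounds beside UNC0379 and the 4 above. The background there was 0.0174% of all tested genes with Chaetocin, 0.00579% with CPTH2, 0.00579% with Garcinol, 0.127% with IOX1 and 0.637% with OICR. At an unadjusted p below 0.05 the numbers of mitosis genes were 0, 0, 2, 0 and 1 in the same order. Of all 17275 tested genes, 815, 163, 625, 2148 and 1843 had such a p, again in that order. With CPTH2, 39 of 42 values were below 0, but the median was -0.11 (-0.01 over all genes) and the lowest adjusted p was 1. With OICR the median was 0.08 and 27 values were above 0, the largest rise in value being that of Mad2l1, at 6796 and 7235 against 4548 and 6040 (log2 difference 0.42, adjusted p = 0.503). With IOX1, Cenpe was 1823 and 351 against 455 and 251 in NC (1.24, adjusted p = 0.642). With Chaetocin, Cenpf was 3036 and 1823 against 604 and 397 (2.26, adjusted p = 0.803), and both libraries lay above both of NC. The most positive value with CPTH2 was that of Cenpe (0.24), with Bromosporine that of Mki67 (0.70) and with MS023 that of Cenpf (1.03). With Garcinol, Cenpe differed by 0.58 (adjusted p = 0.986) and Pttg1 by -0.89 (0.967).

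The wide intervals of Mki67, Cenpf and Cenpe came with a difference between the library numbers 1 and 2 that ran through all 11 groups. Library number 2 was compared with number 1 with the group as a term. Of the 42 mitosis genes, 28 passed (66.7%), beside 52.6% of all tested genes, 17 higher and 11 lower in number 2. Mki67, a coat protein of mitotic chromosomes used as a marker of proliferation, had a log2 difference of -1.77 (SE 0.20, adjusted p = 3.06e-05). It ran from 1100 to 4894 in number 1 and from 401 to 2910 in number 2, and was lower in number 2 in 11 of 11 groups. Cenpf, a large kinetochore protein, differed by -1.78 (SE 0.21) and Cenpe, a kinetochore kinesin, by -1.60 (SE 0.18), each in 11 of 11 groups. These were the 3 mitosis genes beyond 2-fold.

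Hmmr, a spindle assembly protein, differed by -0.80 (SE 0.11) and Anln, the cytokinesis scaffold anillin, by -0.51 (SE 0.08), both lower in number 2 in 11 of 11 groups. Nusap1 (-0.48), Kif11 (-0.45) and Top2a (-0.43) were lower in 10, 9 and 10 groups. In the other direction, Cdc20 was higher in number 2 by 0.43 (SE 0.04), Bub3 by 0.40 (SE 0.05), Racgap1 by 0.34, Cdc25b by 0.29 and Bub1b by 0.21, each in 11 of 11 groups. Pttg1 was higher by 0.63 (SE 0.13) in 9 of 11 groups. Among the genes that passed with a compound, Ccnb2 (-0.01), Prc1 (-0.01), Aurkb (0.01), Kif2c (0.04) and Bub1 (-0.09) did not pass for the number. Cdc25b and Ube2c did, Ube2c being higher in number 2 by 0.22 (limma adjusted p = 0.00123) in 10 of 11 groups.

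**Figure D4:**
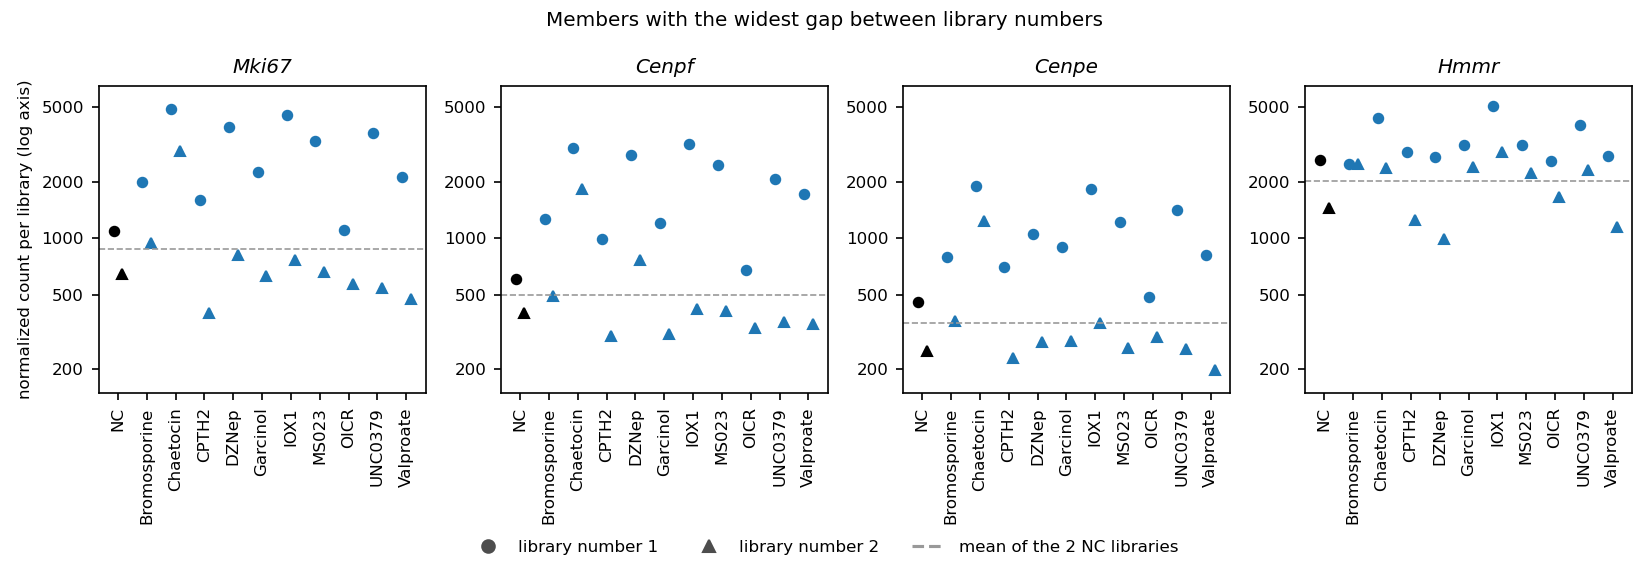
Normalized count (vertical log axis) of Mki67, Cenpf, Cenpe and Hmmr in each of the 22 libraries, with circles for library number 1, triangles for number 2, black for NC and a dashed line at the NC mean. In every group the circle lies above the triangle, and for Mki67, Cenpf and Cenpe all 10 compound libraries of number 1 lie above NC number 1.

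The difference between numbers varied with transcript length and with GC content. Over the 42 genes the Pearson correlation of the log2 difference with log2 length of the longest annotated transcript was -0.66, given as a description across genes that share the same libraries. The 10 longest transcripts (4602 bases or more) had a median difference of -0.44, and 6 of the 10 values were below 0. The 10 shortest (2842 bases or fewer) had a median of 0.22, with 1 of 10 below 0. Cenpf (11130 bases), Mki67 (10061) and Cenpe (7910) are the 3 longest, but Mad2l1 (7557 bases) and Espl1 (6658) were higher in number 2, by 0.23 and 0.13. With GC content the correlation was 0.42. Of the 10 genes lowest in GC (43.0% or less) 9 were lower in number 2, with a median of -0.24, and of the 10 highest (50.4% or more) 0 were lower, with a median of 0.22. What set the 2 numbers apart is not given in the sources used here, and the parts of length and GC content in it were not tested.

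**Figure D5:**
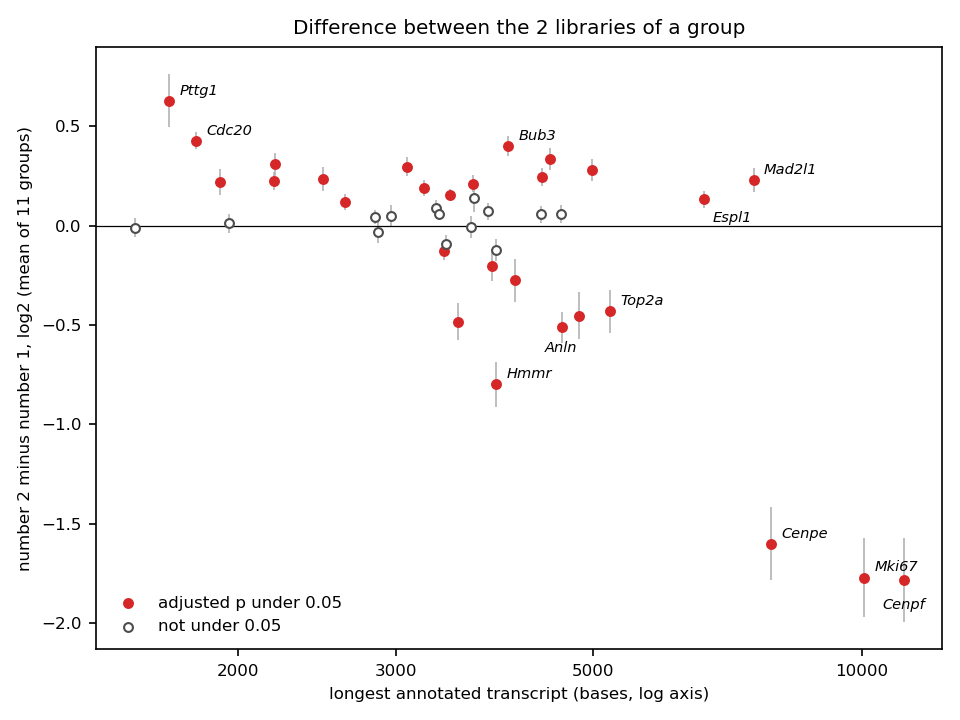
Difference between library number 2 and number 1 (vertical axis, log2, mean over 11 groups, bars ± 1 SE) against the length of the longest annotated transcript (horizontal log axis, bases) for the 42 mitosis genes, red where the adjusted p is below 0.05 (28 genes). Cenpe, Mki67 and Cenpf, at the right, lie near -1.6 to -1.8, while Pttg1 and Cdc20, at the left, lie above 0.4.

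Within a library number, the sign of the difference from NC could depend on the number. Against NC number 1, Mki67, Cenpf, Cenpe, Kif11 and Ndc80 were higher with all 10 compounds. Against NC number 2 they were higher with 5, 5, 8, 6 and 5 of the 10. Cdc25b, Bub1b and Prc1 were lower with all 10 in number 1, and with 10, 9 and 9 in number 2. Each of these counts rests on 1 NC library. The genes were picked by these counts, and no share over all tested genes was computed. Anln was higher with 7 compounds in number 1 and 8 in number 2, Top2a with 4 and 6 and Espl1 with 2 and 4. With DZNep, Top2a differed by -0.32 in number 1 and -1.42 in number 2, Mki67 by 1.84 and 0.33, and Cenpf by 2.2 and 0.95. The genes that passed with DZNep were closer: Ccnb2 differed by -0.71 and -0.70, Bub1 by -0.70 and -0.72, Ube2c by 0.73 and 0.52, Prc1 by -0.38 and -0.61, and Kif2c by -0.27 and -0.33 in numbers 1 and 2. Cdc25b with Valproate differed by -1.46 and -1.06, and Aurkb with MS023 by -0.62 and -0.60. Over the 42 genes the sign was the same in both numbers for 27 with DZNep, 31 with UNC0379 and 35 with IOX1, the highest of the 10 compounds. Each sign compares 1 library with 1, and no mitosis gene passed with UNC0379 or IOX1. The share of all tested genes with the same sign was not computed, so these counts are a description only.

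Other genes of mitosis were taken from a separate list of 128 measured genes, made of further subunits of the anaphase-promoting complex, condensin and cohesin, the kinetochore, the spindle, mitotic kinases and phosphatases, and regulators of G2/M transcription. Over the 10 compounds 36 gene and compound pairs passed. With DZNep 21 of 128 passed (16.4%, beside the 23.6% of all genes), 9 higher and 12 lower, with a median of -0.01. Valproate gave 8, all lower (6.25%, beside 10.3% of all genes), and MS023 gave 5, all lower (3.91%, beside 2.21%). Bromosporine gave 2, both higher (1.56%, beside 5.4%), and each of the other 6 compounds gave 0. The total was 9 without NC number 1 and 20 without NC number 2. The 3 largest changes with DZNep were those of Kntc1, Ckap2 and Zwilch. Kntc1 and Zwilch, which form with ZW10 the complex that brings dynein and Mad1 to kinetochores, fell together: Kntc1 was 6043 and 4274 in NC and 2086 and 1367 with DZNep (log2 change -1.59, SE 0.26, adjusted p = 0.000749), and Zwilch was 4561 and 4121 against 2099 and 1904 (-1.12, SE 0.32, adjusted p = 0.0205). Ckap2, a spindle microtubule protein, rose from 2046 and 2114 to 8453 and 4411 (1.55, SE 0.29, adjusted p = 0.00183).

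Genes of DNA replication, an adjacent phase of the cycle, served as a second comparison. Of 58 genes, 11 passed with DZNep (19%, beside 23.6% of all genes), 2 higher and 9 lower, with a median of -0.09. Valproate gave 4, all lower (6.9%, beside 10.3%), MS023 gave 1 (1.72%, beside 2.21%) and Bromosporine gave 1 (1.72%, beside 5.4%). The other 6 compounds gave 0, and 17 pairs passed in all. The total was 4 without NC number 1 and 4 without NC number 2. A difference between the mitosis and replication lists was not tested.

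The transcription factors of G2/M genes and the cell cycle inhibitor p21 (Cdkn1a) are not members of the list and were fixed beside it. Foxm1 passed with no compound, the largest difference being -0.38 with Valproate (1460 and 1907 against 2049 and 2293 in NC, adjusted p = 0.099). Mybl2, or B-Myb, fell with MS023 from 35363 and 32104 to 20287 in both libraries (log2 change -0.73, SE 0.13, adjusted p = 0.014) and passed with no other compound. Cdkn1a rose with Valproate from 6054 and 5364 to 8038 and 7963 (0.49, SE 0.10, adjusted p = 0.00793) and passed with no other compound. With DZNep Cdkn1a was 6843 and 6634 (0.24, adjusted p = 0.104). Kmt5a was lower with DZNep than with UNC0379, at 2217 and 1382 against 2647 and 2367 (-0.52, SE 0.17, adjusted p = 0.0495).

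The genes outside the list whose pattern was most like the mean standardized level of the 42 genes over the 22 libraries were Eme1, Ndufb10, Stk16, Ncaph, Gba2, Ifitm7, Dnajb6, Fcor, Mtpap and Fbxo5. Their Pearson correlations with it ran from 0.71 to 0.78 over the 22 libraries, given as a description. Ncaph, a condensin subunit, and Fbxo5, an inhibitor of the anaphase-promoting complex, are genes of the cell cycle.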

How the data were processed

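Per the labels, libraries were made from RNA selected on oligo-dT beads. The submitters' processing notes name bcl2fastq, Bowtie2 2.2.5, RSEM and the mm10 build. The deposited values are scores: read counts per gene that the authors full-quantile normalized with EDASeq and rounded to whole numbers, so count models were not used. These normalization steps come from the study's methods, which name no compound, and were assumed to apply here. A table of group means was not used.

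Groups and replicate numbers came from the sample titles. Genes with a value of 10 or more in at least 2 libraries were kept (17275 of 18487). The log2 of the value plus a pseudocount of 1 was fitted with limma 3.58.1 in R 4.3.3 in 1 model of all 11 groups (11 residual degrees of freedom, with a trend in the prior variance), and p-values were Benjamini-Hochberg adjusted over all tested genes of a comparison. Genes with an adjusted p below 0.05 count as passing the test. The pseudocount makes each fold change an understatement for genes of low value. The scripts were tested on simulated data. The libraries numbered 2 were compared with those numbered 1 with the group as a term.

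Named genes were, by rule, every called member, the 5 largest positive and negative differences with DZNep and UNC0379 and the largest of each with the other compounds, 8 fixed genes (Ccnb1, Cdk1, Plk1, Aurkb, Mad2l1, Cdc20, Top2a, Mki67), 4 regulators, the 3 largest called changes of the other mitosis genes with DZNep and the 10 most alike genes. Other genes were named after their values were seen. The members and lists were chosen with earlier results of these data known. Positions and lengths are from GENCODE M21 (mm10), promoters from RefSeq (GRCm38.p6). Alternatives covered the pseudocount, filter, scaling, reference, variance model, adjustment, block and leaving out each library.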

Additional observations from a re-analysis of the deposited data

How the results depend on the processing

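All 10 calls of a mitosis gene kept their direction in all 12 alternatives each; of these 120 fits 82 kept the call and 38 lost it. Fitting only the libraries compared, with 2 residual degrees of freedom, left 0 mitosis genes called with Bromosporine, DZNep, MS023 and Valproate and for DZNep directly against UNC0379, and 0 other mitosis and 0 DNA replication genes. With the mean of the 10 other groups as reference the counts were 2 with Bromosporine, 2 with MS023, 5 with Valproate, 81 for the other mitosis genes and 27 for DNA replication genes. Adjusting over all 10 contrasts together gave 2 with DZNep and 3 with Valproate, 19 other mitosis genes and 6 DNA replication genes. Leaving out each library in turn gave 0 to 1 with Bromosporine, 2 to 5 with DZNep, 0 to 0 with MS023, 1 to 3 with Valproate, 2 to 8 for DZNep against UNC0379, 9 to 40 other mitosis genes and 4 to 17 DNA replication genes. The number 2 against 1 count stayed between 25 and 28 when each group was left out. Shares of all tested genes were not computed for the settings of this paragraph, so these counts have no background beside them.

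The replicate numbers were not treated as pairs: the number 2 minus number 1 differences correlated between 0.0535 and 0.298 over the 55 pairs of groups, with 51 over 0.1, and in 11 of 11 groups they correlated positively with those of every other group, a hint from the data and not from the design. With a replicate block the counts were 4 with Bromosporine, 13 with DZNep, 7 with MS023, 9 with Valproate, 14 for DZNep against UNC0379, 0 with the other 6 compounds, 107 for the other mitosis genes and 46 for DNA replication genes. Over all genes the block moved the share called to 16.5% with Bromosporine, 43% with DZNep, 10.2% with MS023, 26.7% with Valproate and 37% for DZNep against UNC0379. With the 6 compounds that gave 0 mitosis genes it was 5.34% (IOX1), 4.09% (OICR), 0.347% (Chaetocin), 0.081% (UNC0379) and 0.00579% (CPTH2 and Garcinol each). No share over all genes was computed for the totals of 107 and 46. Pttg1 passed with the block with Bromosporine (limma adjusted p = 0.0236), DZNep (0.00569), MS023 (0.035) and Valproate (0.0294).

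Sign changes were seen in 32 of 528 fits of the 44 pairs that were not called, and 12 of these fits gained a call; the cause was not tested. With the other groups as reference, DZNep gave 0.023 for Aurkb and -0.009 for Cenpe, UNC0379 gave 0.031 for Aurkb, 0.052 for Bub1b, 0.119 for Ccnb1 and 0.047 for Cdc20, Cdc25b with OICR was 0.2, and Cenpe was -0.49 with CPTH2 and -0.123 with Garcinol. Leaving out each library in turn, the values with DZNep ran from -0.031 to 0.319 for Ccnb1, -0.276 to 1.637 for Cenpe, -0.011 to 0.499 for Mad2l1, -0.051 to 2.223 for Mki67 and -0.056 to 0.318 for Plk1. With UNC0379 they ran from -0.252 to 0.204 for Ccnb1, -0.241 to 0.196 for Cdc20, -0.206 to 0.069 for Cdk1, -0.405 to 2.064 for Cenpe, -0.451 to 2.084 for Cenpf, -0.262 to 0.147 for Mad2l1, -0.63 to 2.111 for Mki67, -0.269 to 0.169 for Plk1 and -0.012 to 0.363 for Top2a. Cenpe ran from -0.56 to 1.046 with CPTH2 and from -0.255 to 1.409 with Garcinol, and Cenpf from -0.263 to 2.329 with MS023.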

Other observations

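With DZNep, 4 of 17 measured genes of the anaphase-promoting complex group, on the list of other mitosis genes, rose and 1 fell, beside 23.6% of all tested genes called in that comparison. Anapc10, which helps to bind substrates, was 1005 and 1287 in NC and 1869 and 2881 with DZNep (log2 change 1.03, SE 0.25, limma adjusted p = 0.00974). Anapc13 was 1068 and 1458 against 2086 and 2481 (0.87, SE 0.18, adjusted p = 0.00368). Anapc2 and Anapc16 rose by 0.42 and 0.39. Cdc16, a scaffold subunit, fell from 3395 and 2899 to 1931 and 2342 (-0.56, SE 0.11, adjusted p = 0.00299). Of the 17 condensin and cohesin genes 3 fell with DZNep and 0 rose, namely Ncapd2, Ncapd3 and Ncapg, 3 condensin subunits, a share below that 23.6%.

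The pocket proteins p107 (Rbl1) and p130 (Rbl2), which join the MuvB complex in non-dividing cells, changed in opposite directions with DZNep. Rbl1 was 1241 and 1156 in NC and 635 and 549 with DZNep (log2 change -1.02, SE 0.14, limma adjusted p = 0.000215). Rbl2 was 390 and 382 against 605 and 479 (0.48, SE 0.16, adjusted p = 0.0381). The NC and DZNep libraries did not overlap for either gene. The genes of these paragraphs were chosen after their values were seen.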
